A study of Mus musculus with 8 samples.

Results

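The genes described here are those of the pre-B cell receptor and of V(D)J recombination, measured in CD11b+ and CD11b- cells sorted from mouse bone marrow. They were chosen by name as Igll1, Vpreb1, Vpreb2, Vpreb3, Cd79a, Cd79b, Blnk, Rag1, Rag2 and Dntt, which are 10 of the 18790 named genes in the deposited tables. Of these, 9 passed the filter on low counts and entered the test, and Rag1 did not. The study profiled mRNA of a pair of sorted populations that its labels call "macrophage" in quotation marks, with 4 biological replicates of each. One sort was CD11b+F4/80+Ly6G-GFPloVCAM1+ and is called CD11b+ here, and the other was CD11b-F4/80+GFP+VCAM1+ and is called CD11b-. All cells came from flushed femoral marrow of C57BL/6 mice that carried the Csf1r-EGFP transgene and had no treatment. The EGFP reporter is driven by sequences of Csf1r, the receptor gene for macrophage colony-stimulating factor, so the GFP gates follow that reporter. The sources used here give neither the age or sex of the mice nor whether marrow was pooled.

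Developing B cells in bone marrow assemble their immunoglobulin genes by V(D)J recombination. Rag1 and Rag2 encode the recombinase that cuts DNA at the gene segments, and Dntt encodes terminal deoxynucleotidyl transferase, which adds bases without a template at the joints. Once a heavy chain is made, it pairs with a surrogate light chain built from Igll1 (lambda 5) and a VpreB protein and goes to the surface with the signalling subunits Cd79a (Ig alpha) and Cd79b (Ig beta). Blnk is the adaptor that links the kinase Syk to downstream enzymes, and Vpreb3 is a VpreB-like protein that associates with immunoglobulin chains inside precursor B cells. Mature B cells keep Cd79a, Cd79b and Blnk and no longer express the surrogate light chain, the recombinase or Dntt.

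The libraries held 36604660 to 47951234 counts in CD11b+ and 27462607 to 35160747 in CD11b-, and levels are given as deposited CPM, which are counts scaled to a common library total. A floor of 3 counts corresponded to 0.0627 to 0.110 CPM per library, and such floors cover counting error only. Transcripts of the sort genes were present. The CD11b gene Itgam stood at 287 ± 48.4 in the CD11b+ and 8.31 ± 6.21 CPM in the CD11b- libraries (SD, n = 4). Vcam1 stood at 393 ± 37.9 and 107 ± 46.2 CPM, and the F4/80 gene Adgre1 at 91.1 ± 23.7 and 22.9 ± 6.99 CPM. Csf1r, whose sequences drive the reporter, stood at 85.2 ± 15.1 and 35.8 ± 15.6 CPM. Its transcript was thus higher in the GFPlo sort than in the GFP+ sort, against the order of the GFP gates. The summed level of 15 macrophage markers was 1795 to 2066 CPM in CD11b+ and 1439.9 to 1903 CPM in CD11b-. Apoe, the most abundant of them, was left out after the values were seen. The other 14 then summed to 1167 to 1219 CPM in CD11b+ and 648 to 1039 CPM in CD11b-, with no overlap. Vcam1, a gene of the sort gates, is among these 14, and its difference given above is a large part of that gap. Of the 15 markers 4 were called higher in CD11b+, 3 lower and 8 not called. Those called higher include Vcam1, Adgre1 and Csf1r, the sort and reporter genes, so the sums show no common direction of macrophage markers. By far the larger sums came from other lineages, with 10 neutrophil markers at 67060 to 94144 CPM in CD11b+ and 10 erythroid markers at 29907 to 41041 CPM in CD11b-. Both sorts therefore held transcripts of several lineages, and the labelled macrophage identity is not used below.

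The stretches before the transcription starts of 3 members are shown because these genes stand for the 3 roles and were all lower in CD11b+ or nearly absent there. They are surrogate light chain (Igll1), signalling subunit (Cd79a) and recombinase (Rag1). The sequences are from RefSeq on build GRCm38.p6, whereas the deposited files were made on mm9, and each is 250 bases long, 5′ to 3′ on the strand of the gene. Capitals mark the motifs searched on both strands, which were the EBF1 core CCCNNGGG, the E-boxes CAGGTG and CAGCTG, the Ikaros core TGGGAA, the PU.1 core GAGGAA and the TATA box TATAAA.
Igll1, chr16:16863986-16864235, minus strand: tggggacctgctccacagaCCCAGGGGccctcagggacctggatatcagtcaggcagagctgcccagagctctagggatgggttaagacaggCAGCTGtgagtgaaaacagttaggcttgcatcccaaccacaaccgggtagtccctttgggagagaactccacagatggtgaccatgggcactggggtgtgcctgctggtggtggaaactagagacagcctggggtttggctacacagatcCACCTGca
Cd79a, chr7:24897247-24897496, plus strand: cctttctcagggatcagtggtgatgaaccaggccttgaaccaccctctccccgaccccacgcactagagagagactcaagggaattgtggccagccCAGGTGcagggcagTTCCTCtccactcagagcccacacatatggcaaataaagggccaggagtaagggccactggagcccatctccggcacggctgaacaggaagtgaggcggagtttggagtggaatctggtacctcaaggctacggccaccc
Rag1, chr2:101649533-101649782, minus strand: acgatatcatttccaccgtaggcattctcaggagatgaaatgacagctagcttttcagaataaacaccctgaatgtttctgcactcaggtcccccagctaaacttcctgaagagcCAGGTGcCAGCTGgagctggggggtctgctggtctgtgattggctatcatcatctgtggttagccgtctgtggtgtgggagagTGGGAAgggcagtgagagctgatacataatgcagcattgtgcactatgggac

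Of the 10 genes, 9 matched the promoter table (Cd79b did not), and motifs were counted in windows of 300 bases, with 250 before and 50 after the start. The E-box CAGGTG was in 6 of 9 windows, those of Igll1, Vpreb1, Vpreb2, Cd79a, Blnk and Rag1, against 20.21% of all 32851 promoter windows of that length. In the Igll1 sequence it is written on the other strand as CACCTG and begins 8 bases before the start, and in Rag1 it begins 135 bases before the start, next to a CAGCTG that begins 128 bases before it. CAGCTG was in 3 of 9 windows (Igll1, Vpreb2 and Rag1) and in 16.3% of all windows. The PU.1 core was in 5 of 9 (Igll1, Vpreb1, Vpreb2, Cd79a and Rag2) against 28.28% of all, and in Cd79a it reads TTCCTC. The EBF1 core was in 1 of 9, in Igll1 at 231 bases before the start, against 13.67% of all. The Ikaros core was in Vpreb2 and Rag1, 2 of 9, against 25.56% of all, and in Vpreb2 it overlaps the CAGCTG there. The TATA box was in 0 of 9 and in 13.62% of all windows. The Vpreb1 and Vpreb2 windows share a stretch that holds CAGGTG and the PU.1 core, so these 2 windows are not separate cases in those counts. From its annotated start on, the Vpreb2 window reads atggcc, which opens with a start codon. By the shared stretch, the CAGCTG and Ikaros core of Vpreb2 lie after the point that matches the Vpreb1 start. These matches describe letters in a window and say nothing about binding.

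Vpreb1 and Vpreb2 are near-identical copies, and their sequences are shown because reads from one could be counted for the other. In the coding sequence (GENCODE M21, GRCm38) 417 of 426 bases were identical, or 97.89%, with 9 substitutions from Vpreb1 to Vpreb2, counted from 1 at the first coding base: T37C, T39C, T83C, A280G, T345C, C348T, G366C, G378A and G387A. The longest identical run was 196 bases, and 42.97% of all 50-base windows of the Vpreb1 coding sequence were found letter for letter in Vpreb2. Coding positions 328 to 387, the 60 bases richest in differences, read as follows, with differing bases in capitals.
Vpreb1 coding: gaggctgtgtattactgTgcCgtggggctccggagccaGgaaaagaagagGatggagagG
Vpreb2 coding: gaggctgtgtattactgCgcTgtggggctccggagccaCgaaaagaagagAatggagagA
The bases before the Vpreb1 start were shared as well. Over 106 bases, which begin 106 bases before the annotated start of Vpreb1 and 250 bases before that of Vpreb2, 104 were identical, and the substitutions were G12T and C104T, counted from 1 at the 5′ end of the stretch.
Vpreb1 upstream: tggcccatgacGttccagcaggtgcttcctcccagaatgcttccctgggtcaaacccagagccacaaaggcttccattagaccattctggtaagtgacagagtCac
Vpreb2 upstream: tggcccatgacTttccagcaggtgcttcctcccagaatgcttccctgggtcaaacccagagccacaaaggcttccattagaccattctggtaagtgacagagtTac
Both stretches carry the E-box CAGGTG followed by TTCCTC, the PU.1 core on the other strand. The treatment of multiply mapped reads is not given in the sources used here, so the split of counts between the copies is uncertain and their sum is given below too.

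The surrogate light chain genes Igll1, Vpreb1 and Vpreb2 and the related Vpreb3 were each lower in CD11b+, and all but Igll1 were at 0 in at least 1 CD11b+ library. Fold changes are CD11b+ over CD11b-, fitted with edgeR's quasi-likelihood test, and adjusted p-values are Benjamini-Hochberg over 11965 genes. Igll1 was at 1.99, 1.98, 0.626 and 6.24 CPM in CD11b+ replicates 1 to 4 and at 115, 322, 250.4 and 378 CPM in CD11b- replicates 1 to 4. The lowest CD11b- library was above the highest CD11b+ library, and the CD11b+ mean was 1.02% of the CD11b- mean (2.71 ± 2.44 against 266 ± 113 CPM, SD, n = 4). The difference was log2 -6.59 (SE 0.74, adjusted p = 0.000111, edgeR), or 96.5-fold, and log2 -7.39 without CD11b+ replicate 4, which had more Igll1 than the other CD11b+ libraries. In bulk libraries, fewer cells of a type and less RNA per cell cannot be told apart, here and in all results that follow.

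Vpreb1 was at 0.273 CPM in CD11b+ replicate 1, from 10 counts, and at 0 in the other CD11b+ libraries. In CD11b- it was at 7.54, 34.6, 26.6 and 52.5 CPM. A single CD11b+ library thus held all CD11b+ counts of this gene, and every CD11b- library was higher. The difference was log2 -8.75 (SE 1.49, adjusted p = 0.00148, edgeR). Pooled over all libraries, the CD11b- level was 499-fold higher. Without CD11b+ replicate 1 the pooled CD11b- level was at least 1294-fold higher than a floor of 3 counts over the remaining CD11b+ libraries. Vpreb2 had no count in any CD11b+ library and was at 3.72, 5.60, 6.82 and 11.9 CPM in CD11b-. It was at least 379-fold higher in CD11b- against a floor of 3 counts over all CD11b+ libraries (adjusted p = 0.00107, edgeR). In every CD11b- library Vpreb2 was below Vpreb1. With the counts of both copies summed as 1 gene the difference was log2 -9.06 (SE 1.41, adjusted p = 0.000864, edgeR).

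Vpreb3 was at 1.53, 0, 0.98 and 1.06 CPM in the CD11b+ libraries and at 86.1, 118, 98.5 and 253 CPM in the CD11b- ones. The groups were far apart, with CD11b- replicate 4 the highest library. The CD11b+ mean was 0.642% of the CD11b- mean, and the difference was log2 -7.24 (SE 0.92, adjusted p = 0.000242, edgeR).

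**Figure D1:**
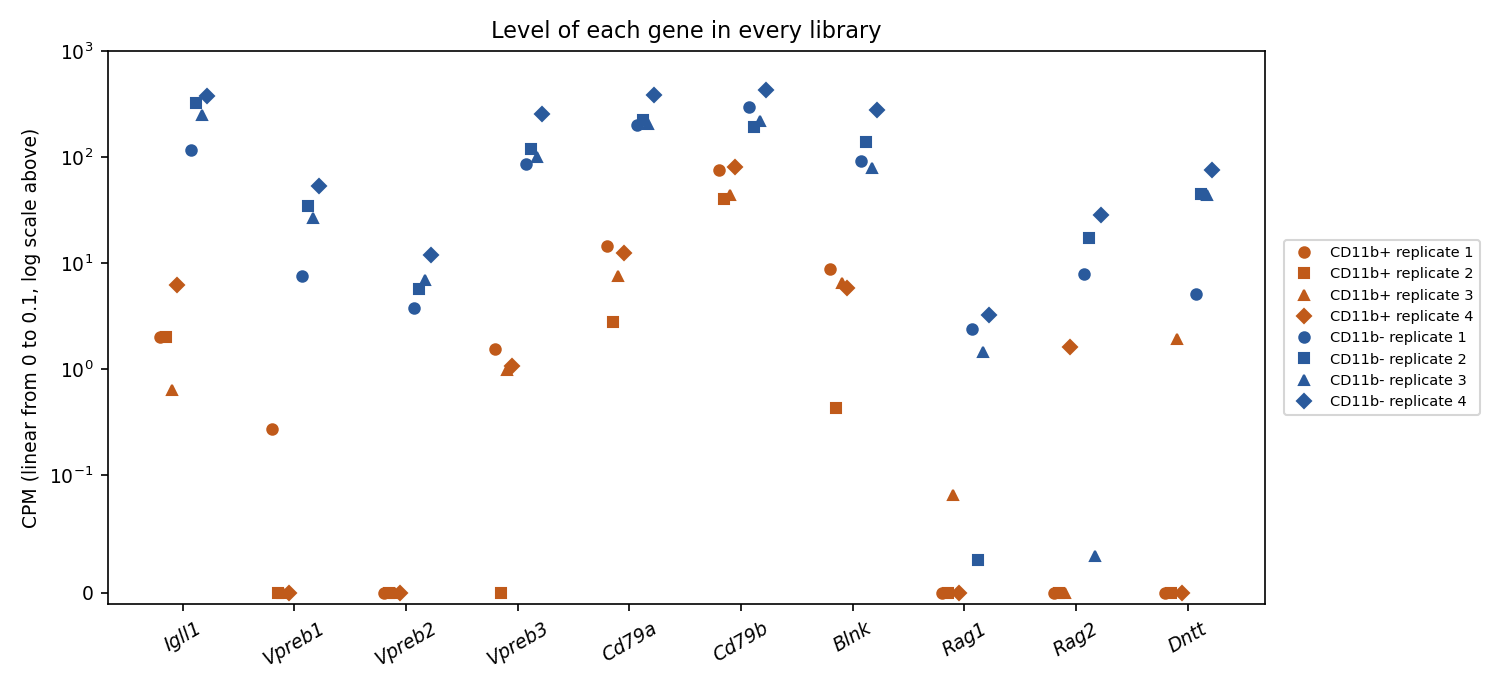
CPM of each gene (vertical axis, linear from 0 to 0.1 and logarithmic above) in each of the 4 CD11b+ libraries (orange) and 4 CD11b- libraries (blue), with a marker shape for each replicate number. Groups are apart for 8 genes and overlap for Rag1 and Rag2, where CD11b- replicate 2 (0.028 CPM of Rag1) and replicate 3 (0.031 CPM of Rag2) are close to 0.

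The signalling subunits were detected in every library of both sorts, and Cd79b differed least of all tested members. Cd79a was at 14.4, 2.76, 7.51 and 12.4 CPM in the CD11b+ libraries and at 198, 223, 203 and 383 CPM in the CD11b- ones. The CD11b+ level was 3.68% of the CD11b- level (9.27 ± 5.22 against 252 ± 88.1 CPM, SD, n = 4), a log2 difference of -4.72 (SE 0.50, adjusted p = 8.24e-05, edgeR). Cd79b was at 74.6, 39.8, 43.3 and 80.2 CPM in the CD11b+ libraries and at 294, 189, 219 and 423 CPM in the CD11b- ones. Here the CD11b+ libraries kept 21.1% of the CD11b- level, and the difference was log2 -2.20 (SE 0.31, adjusted p = 0.000492, edgeR), or 4.58-fold. The sorts did not overlap for either subunit.

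Blnk, the adaptor, was at 8.715, 0.43, 6.38 and 5.82 CPM in the CD11b+ libraries and at 91.2, 137, 78.9 and 275 CPM in the CD11b- ones. CD11b+ replicate 2 was the lowest library for Blnk, as it was for Cd79a and Cd79b. The difference was log2 -4.72 (SE 0.79, adjusted p = 0.0014, edgeR), or 26.3-fold.

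Of the recombination genes, Rag1 and Rag2 were the lowest members per kilobase in CD11b-, whereas Dntt was not. The calls of Rag1, Rag2 and Dntt were less stable than those of the receptor genes. Dntt was at 0, 0, 1.90 and 0 CPM in CD11b+, with all 91 counts in replicate 3, and at 5.085, 44.8, 43.9 and 75.7 CPM in CD11b-. The sorts did not overlap, and CD11b- replicate 1 was well below the other CD11b- libraries. The difference was log2 -6.42 (SE 1.80, adjusted p = 0.0227, edgeR). Its call was lost without CD11b- replicate 4 (adjusted p = 0.0518, edgeR), and over all alternatives that was the single lost call of a member. Pooled over all libraries, the CD11b- level was 76.7-fold higher. Without CD11b+ replicate 3, which held all CD11b+ counts, it was at least 1650-fold higher against 3 counts over the remaining CD11b+ libraries.

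Rag2 was at 0, 0, 0 and 1.60 CPM in the CD11b+ libraries and at 7.925, 17.15, 0.031 and 28.4 CPM in the CD11b- ones. The sorts overlapped, because CD11b- replicate 3 had 1 count while CD11b+ replicate 4 had 65. Rag2 was not called, with log2 -5.00 (SE 2.23, adjusted p = 0.13, edgeR). Pooled over all libraries, its CD11b- level was 33.1-fold higher. Rag2 was called lower by DESeq2 (adjusted p = 0.0277) and without CD11b+ replicate 4 (adjusted p = 0.0221, edgeR). Without that library, which held all CD11b+ counts, the CD11b- level was at least 539.6-fold higher against the same floor. Rag1 did not pass the filter on low counts, being at 0, 0, 0.083 and 0 CPM in the CD11b+ libraries and at 2.38, 0.028, 1.44 and 3.20 CPM in the CD11b- ones. These are 4 counts in CD11b+ replicate 3 and 68, 1, 47 and 88 counts in CD11b-, and the sorts overlapped through CD11b- replicate 2. With no filter its difference was log2 -6.07 and not called (adjusted p = 0.114, edgeR). With a library left out it could pass the filter, and it was then called lower without CD11b+ replicate 3 (adjusted p = 0.0434, edgeR) and without CD11b- replicate 2 (adjusted p = 0.0343, edgeR).

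Counted over the group, 8 of the 9 tested members were lower in CD11b+, 0 were higher and Rag2 was not called, where 15.0% of all 11965 tested genes were called lower and 14.6% higher. No member was higher by DESeq2 or at an unadjusted p under 0.05 in edgeR either (0 and 0). The same 8 had every CD11b- library above every CD11b+ library, as did 18.4% of all tested genes. The median log2 difference of the 9 was -6.42, beside -0.01 over all tested genes. Vpreb1, Vpreb2, Rag2 and Dntt, 4 of the 9, had at most 1 CD11b+ library at the filter minimum of 0.280 CPM, so they passed the filter through the CD11b- libraries and these counts carry no weight beyond the single genes. The summed level of all 10 genes was 45.0 to 107 CPM in CD11b+ and 812 to 1884 CPM in CD11b-.

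**Figure D2:**
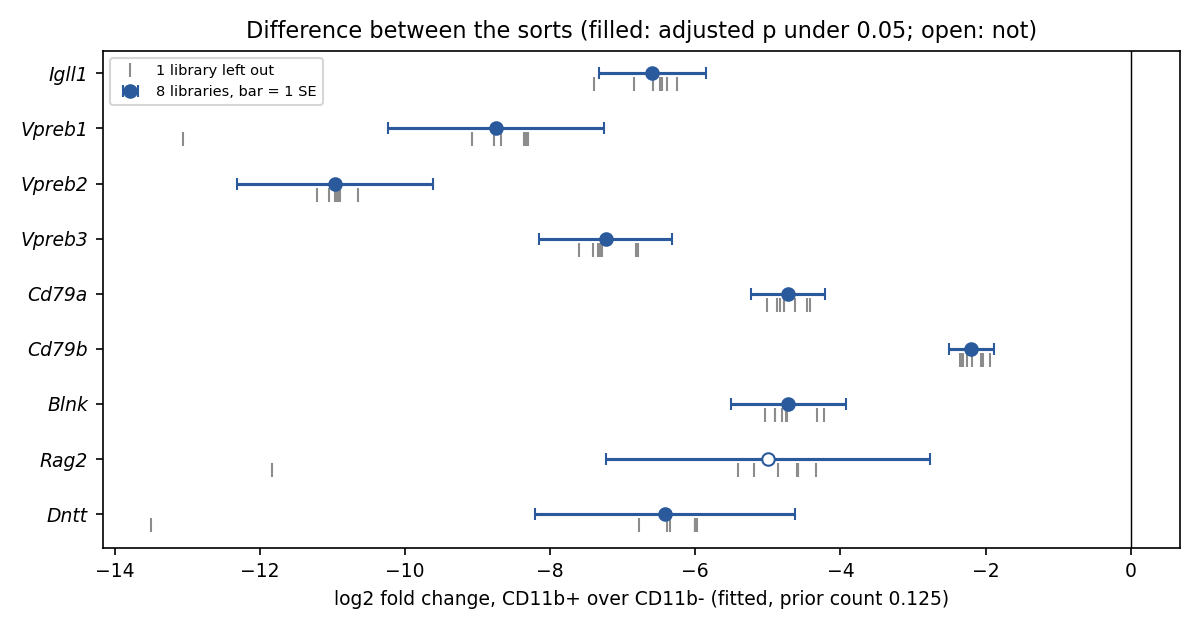
Fitted log2 fold change of the 9 tested genes (horizontal axis, CD11b+ over CD11b-, points with bars of 1 SE over 8 libraries, filled where the adjusted p is under 0.05) and the value with each library left out (grey ticks). All points lie below 0, Cd79b at -2.20 is nearest to it, and single ticks far to the left belong to Vpreb1, Rag2 and Dntt, whose CD11b+ counts sat in 1 library, while the Vpreb2 point depends on the prior count because its CD11b+ libraries had no count.

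Per kilobase of exon (GENCODE M21 lengths), the order of levels within CD11b- was Cd79b, Cd79a, Vpreb3, Igll1, Vpreb1, Blnk, Dntt, Vpreb2, Rag2 and Rag1. Cd79b stood at 197 ± 72.8 CPM per kb, Cd79a at 173 ± 60.4, Vpreb3 at 162 ± 90.0 and Igll1 at 123 ± 52.4 (SD, n = 4), and the libraries of these neighbours overlapped. Igll1 and the next gene, Vpreb1 at 25.3 ± 15.5 CPM per kb, did not overlap. From there on neighbours overlapped again, with Blnk at 24.3 ± 15.0, Dntt at 18.5 ± 12.6, Vpreb2 at 9.23 ± 4.59, Rag2 at 3.91 ± 3.57 and Rag1 at 0.267 ± 0.206 CPM per kb. Per kilobase of coding sequence Igll1 came first at 425 CPM per kb, then Cd79a at 381, Cd79b at 326 and Vpreb3 at 314, so the order of the upper 4 depends on the length used.

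The 4 CD11b- libraries differed in the proportions of these transcripts. CD11b- replicate 4, which had the fewest total counts, held the highest level of each of the 10 genes, and the spread over libraries (SD as a percent of the mean) ran from 35.0% for Cd79a to 91.3% for Rag2. Within each library, counts were set as a percent of its own Cd79a counts, a gene of both precursor and mature B cells. Igll1 was then at 58.1% in replicate 1 and at 144%, 123% and 98.7% in replicates 2 to 4. Vpreb1 was at 3.80% in replicate 1 and at 15.6%, 13.1% and 13.7% in the others, and Dntt at 2.57% against 20.1%, 21.6% and 19.8%. Replicate 1 was the lowest library on this scale for these 3 genes, and also for Vpreb2 (1.88%) and Vpreb3 (43.4%). It was not the lowest for the recombinase genes: Rag1 was highest there, at 1.20% against 0.0128%, 0.711% and 0.837%, and Rag2 was lowest in replicate 3, at 0.0151%.

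Genes outside the list, chosen after their values were seen, were set on the same scale. Il7r, the interleukin 7 receptor of early lymphoid cells, was at 3.75% of Cd79a in replicate 1 and at 15.9% to 22.0% in the others. Enpep, a gene of large pre-B cells, did not follow that order. It was at 7.84% in replicate 1 and at 6.84%, 25.5% and 8.94% in the others, so replicate 1 was not its lowest library. Ms4a1 (CD20), a gene of later B cell stages, was at 42.6% in replicate 1 and 12.3%, 21.4% and 22.7% in the others, and Fcer2a (CD23), of mature B cells, at 17.9% and 2.88%, 0.711% and 8.29%. Replicate 1 was the highest library for both. Cd79b (149%, 85.0%, 108% and 111%) varied less. These are single libraries with no test, and 1 library cannot be compared with replicates.

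**Figure D3:**
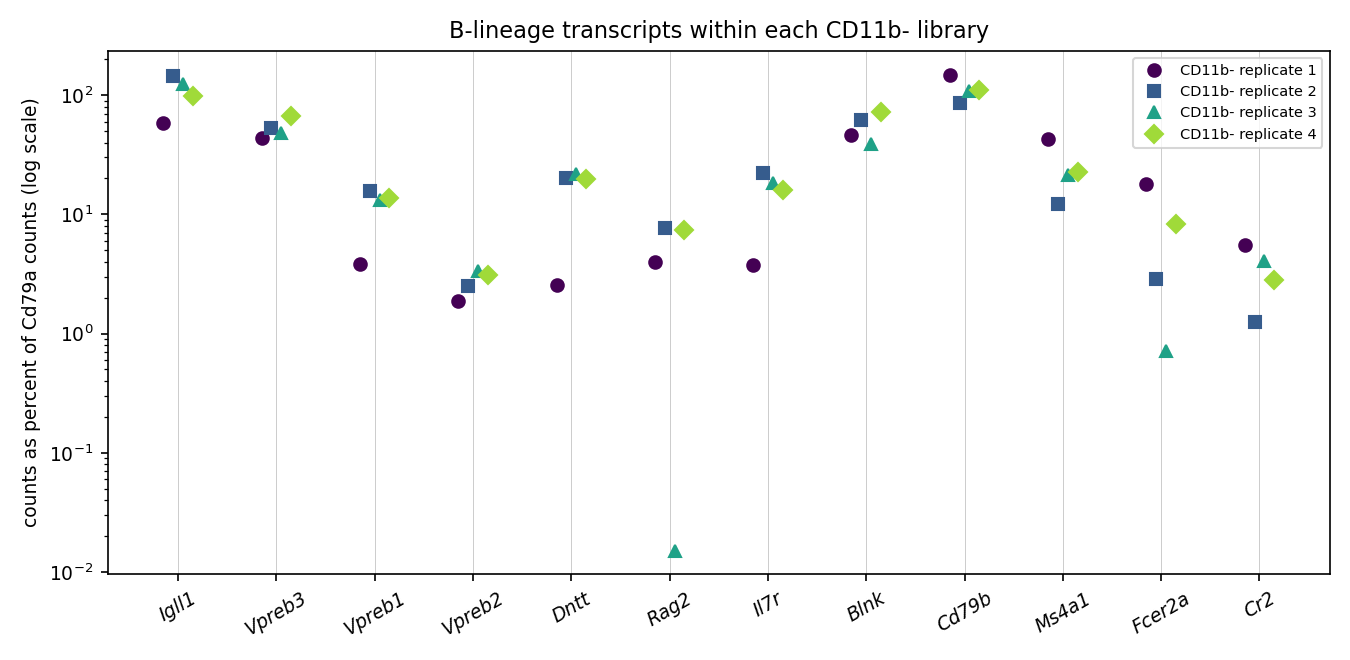
Counts of B-lineage genes as a percent of Cd79a counts (logarithmic vertical axis) within each CD11b- library, 1 marker per replicate. Replicate 1 (dark circles) is lowest for Igll1, Vpreb1, Dntt and Il7r and highest for Ms4a1, Fcer2a and Cr2, and the lone low point of Rag2 is replicate 3 at 0.0151%.

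The ratio of the receptor subunits was also apart between the sorts, but not at an adjusted p under 0.05. Cd79a counts were 0.0693 to 0.193 of Cd79b counts in CD11b+ and 0.673 to 1.18 in CD11b-, with no overlap. The mean difference was log2 -2.71 (exact permutation test, p = 0.0286, the smallest it allows here). This is 1 of 6 pairs among the members with counts in every library, chosen after the values were seen, and its Benjamini-Hochberg value over the 6 was 0.0571. Igll1 over Cd79b (log2 -4.70) and Cd79b over Blnk (log2 2.98) gave the same p = 0.0286 in the exact permutation test and the same adjusted value. Cd79a over Blnk was 1.18 to 6.41 in CD11b+ and 1.39 to 2.57 in CD11b- (exact permutation p = 0.8), a difference of log2 0.27. No pair passed 0.05 after adjustment over the 6.

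SmartSeq2, the library method, does not mark strand, so reads of overlapping genes cannot be told apart. In GENCODE M21, Vpreb1 overlaps Top3b, a topoisomerase gene on the other strand, which was at 172 ± 17.8 CPM in the CD11b+ libraries, against 105 ± 8.63 CPM in the CD11b- ones (SD, n = 4, log2 0.76, adjusted p = 0.00174, edgeR). Rag1 and Rag2 overlap B230118H07Rik, at 19.0 ± 5.52 and 4.74 ± 1.99 CPM (log2 2.06, adjusted p = 0.00829, edgeR), and the other 7 members overlap no gene. Both neighbours were called higher in CD11b+, whereas Vpreb1 was called lower.

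Genes around the receptor moved in both directions. Of 26 genes of pre-B receptor signalling 10 were higher in CD11b+, 6 lower and 10 not called, with a median log2 difference of 0.57. The 3 most abundant genes rose. They were the phosphatase Ptpn6 (400.0 ± 49.1 against 184 ± 29.3 CPM, log2 1.17, adjusted p = 0.000233), the exchange factor Vav1 (log2 1.47, adjusted p = 0.000744) and the kinase Prkcb (log2 1.51, adjusted p = 0.000298). The 6 lower genes, looked up after the values were seen, include Cd22 (log2 -5.02, adjusted p = 0.0340) and the kinase Blk (log2 -4.93, adjusted p = 0.00608). Bank1 (log2 -2.02), Fyn (log2 -1.81) and Pik3r1 (log2 -1.80) were also lower. The largest rise was in the adaptor Sh3bp2 (log2 4.11, adjusted p = 0.0409), whose call was lost in 11 of the alternatives listed in the closing section. Ptpn6, Vav1 and Prkcb act in myeloid cells too.

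Of 17 tested genes of V(D)J end joining, the repair steps after the recombinase has cut, 0 were higher, 5 lower and 12 not called, with a median of -0.22. At an unadjusted p under 0.05 in edgeR 1 was higher, and by DESeq2 0 were. The histone gene H2afx fell by 1.49 on the log2 scale (297 ± 17.0 against 857 ± 176 CPM, adjusted p = 0.00015). Hmgb1, a cofactor of the recombinase, fell by 0.68 (adjusted p = 0.0138), and Xrcc6, the Ku70 subunit, by 0.63 (adjusted p = 0.0246, lost without any of 5 single libraries, with adjusted p from 0.0510 to 0.0793). The largest fall was that of the repair factor Trp53bp1 (19.3 ± 7.78 against 122 ± 69.1 CPM, log2 -2.65, adjusted p = 0.0025). These repair genes act in cells of all kinds, unlike Rag1, Rag2 and Dntt, which are lymphoid.

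Of 11 genes of IL-7 and FLT3 signalling 1 was higher, 3 lower and 7 not called, with a median of 0.46. Il7r was at 0, 0.152, 0.104 and 0.025 CPM in the CD11b+ libraries and at 7.43, 48.9, 37.2 and 61.0 CPM in the CD11b- ones (log2 -8.97, SE 1.07, adjusted p = 0.00016, and -9.58 without CD11b+ replicate 2). Its CD11b+ levels were at a few counts per library, and the sorts did not overlap. Il2rg, the shared receptor chain, fell by 0.84 on the log2 scale (adjusted p = 0.00665). Jak1 (log2 -0.43, adjusted p = 0.162) and Stat5b (log2 0.75, adjusted p = 0.14) were not called, although Jak1 was called lower without CD11b- replicate 2 (adjusted p = 0.0274). The 1 gene called higher was Crlf2, a receptor chain for thymic stromal lymphopoietin (log2 1.54, adjusted p = 0.0408), and it lost its call without any of 7 single libraries (adjusted p from 0.0586 to 0.111).

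Of 19 tested B-lineage transcription factors 3 were higher, 11 lower and 5 not called, with a median of -2.01. Bach2, a repressor of early and mature B cells, fell most, from 47.4 ± 24.0 CPM in CD11b- to 0.324 ± 0.246 CPM in CD11b+ (log2 -7.13, adjusted p = 7.13e-05). Spi1 (PU.1), which myeloid and B cells share, rose most, at 441 ± 46.6 against 35.9 ± 13.0 CPM (log2 3.66, adjusted p = 1.43e-05). Myb, a factor of blood progenitors, was also higher (log2 1.16, adjusted p = 0.00255), and Ikzf1 (Ikaros) was not called (log2 -0.14, adjusted p = 0.644). Ebf1, an activator of the surrogate light chain genes that was picked after its values were seen, was at 17.4, 5.64, 2.94 and 11.8 CPM in the CD11b+ libraries and at 89.5, 293, 346 and 226 CPM in the CD11b- ones (log2 -4.65, SE 0.65, adjusted p = 0.000431). As for Igll1 and Dntt, CD11b- replicate 1 was the lowest CD11b- library for Ebf1.

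Of 23 tested B cell stage surface genes 2 were higher, 12 lower and 9 not called, with a median of -3.50. The number lower was 7 without CD11b- replicate 4. Enpep, the BP-1 aminopeptidase of large pre-B cells, had no count in any CD11b+ library and stood at 29.2 ± 17.5 CPM in CD11b- (adjusted p = 0.000173). Cd24a fell by 2.68 on the log2 scale (from 627 ± 91.1 CPM in the CD11b- libraries, adjusted p = 5.63e-06) and the invariant chain Cd74 by 1.09 (adjusted p = 0.0217, but 0.0582 without CD11b+ replicate 2 and 0.0516 without CD11b- replicate 4). Spn (CD43), which is also a myeloid surface protein, rose by 2.74 (adjusted p = 0.00169). Of 7 tested immunoglobulin and plasma cell genes 1 was higher, 4 lower and 2 not called, with a median of -2.71. The secretory factor Xbp1 was higher (log2 1.18, adjusted p = 0.0126). Jchain, the joining chain of polymeric antibodies, was lower (33.4 ± 17.4 against 218 ± 142 CPM, log2 -2.71, adjusted p = 0.00558), and so was the factor Irf4 (log2 -6.13, adjusted p = 0.0116, and -7.26 without CD11b+ replicate 4). Creld2, a chaperone of the secretory pathway, was not called (log2 0.66, adjusted p = 0.244). Cd22 and Irf4 are each on 2 of these lists.

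**Figure D4:**
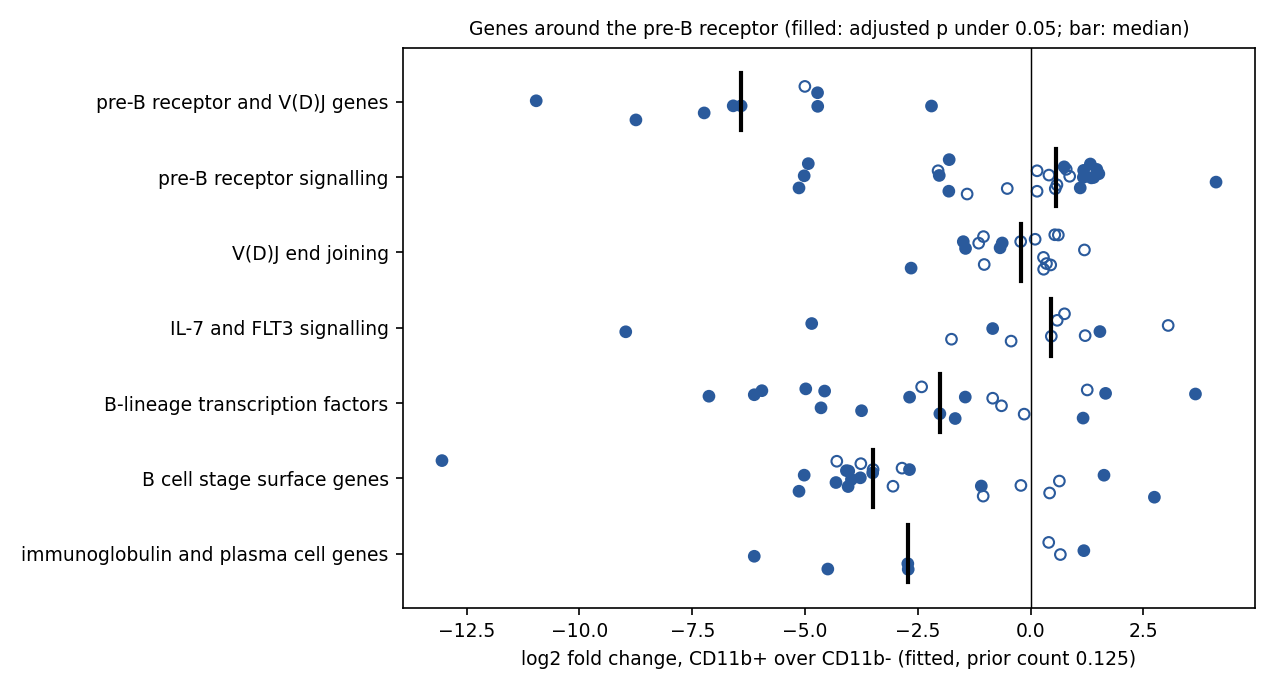
Fitted log2 fold change (horizontal axis, CD11b+ over CD11b-) of every tested gene of the 10-gene group and of 6 related lists (1 row each), filled where the adjusted p is under 0.05, with a vertical bar at each list's median. Medians run from -6.42 for the pre-B receptor and V(D)J genes to 0.57 for receptor signalling, and the far left point of the surface genes is Enpep, whose value depends on the prior count.

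Markers of other cells differed between the sorts too, and not all in the direction of the members. T cell markers (14 measured) summed to 12.7 to 62.1 CPM in CD11b+ and 309 to 401 CPM in CD11b-. Of 9 tested 5 were lower and 4, among them Cd3e and Cd4, not called. Cd8b1 and Themis, which were not tested, were at 0 in all CD11b+ libraries. In CD11b-, Themis had counts in replicate 4 only, and Cd8b1 was at 0 in replicate 3. Lck made up a large part of the CD11b- sum, at 127 to 194 CPM. Without Lck, left out after its values were seen, the other 13 summed to 9.24 to 23.9 and 173 to 275 CPM. Plasmacytoid dendritic cell markers (13 measured) summed to 92.2 to 124 and 144 to 216 CPM, and of 12 tested 6 were lower, 1 higher and 5 not called, with Ccr9 and Klk1 at 0 in all CD11b+ libraries. The 1 higher was Lair1, at a mean of 57.0 CPM in CD11b+ and 4.47 CPM in CD11b-, and it made up a large part of the CD11b+ sum. All 10 erythroid markers were lower, with sums of 672 to 1136 against 29907 to 41041 CPM. Lymphoid and stem progenitor markers (12 measured) summed to 427 to 505 and 286 to 502 CPM, with 2 of 11 tested higher and 2 lower. NK cell markers (10 measured) summed to 1122 to 1547 and 139 to 349 CPM, with 1 of 9 tested higher and 1 lower. That sum was mostly Nkg7, a granule protein gene, at 1097 to 1506 CPM in CD11b+ and 84.5 to 249 CPM in CD11b-. Without Nkg7, left out after its values were seen, the direction turned, and the other 9 summed to 18.1 to 48.3 and 54.4 to 108 CPM. Of the 10 neutrophil markers 8 were higher and 2 not called, and of the 15 macrophage markers 4 were higher, 3 lower and 8 not called. The part of other cells in the levels of the 10 genes was not tested.

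**Figure D5:**
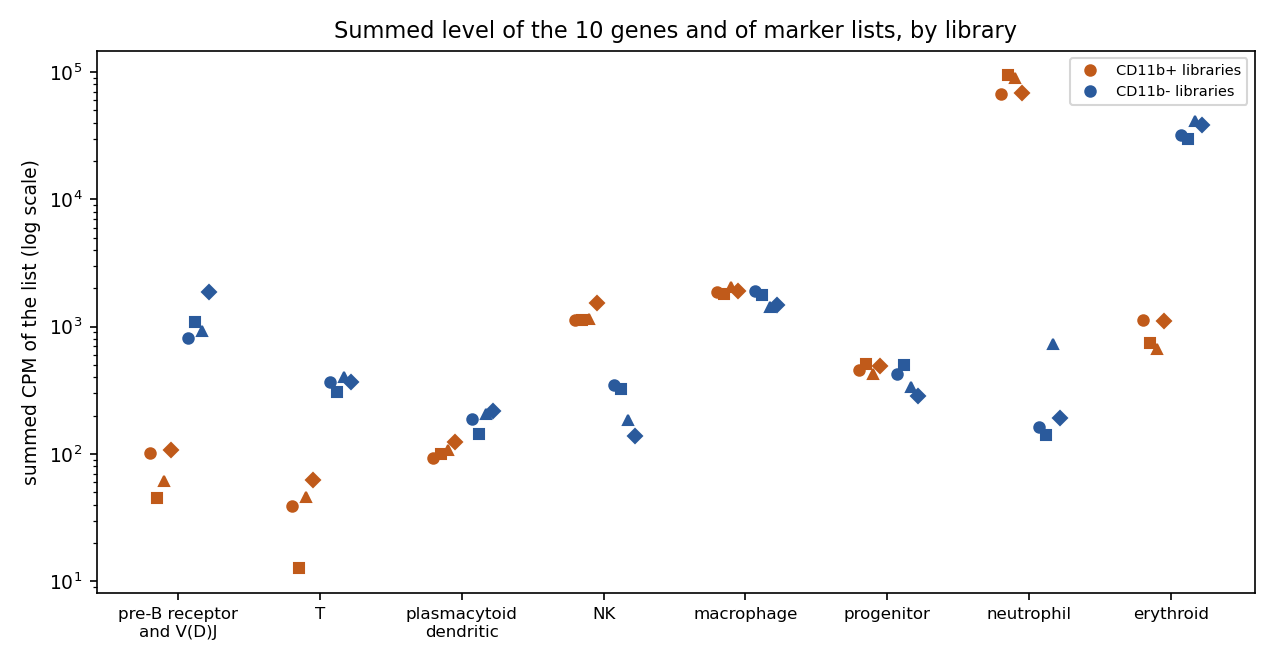
Summed CPM (logarithmic vertical axis) of the 10 genes and of 7 marker lists in each CD11b+ (orange) and CD11b- (blue) library, with the marker shape giving the replicate number. The 10 genes sum to 812 CPM or more in CD11b- and at most 107 CPM in CD11b+, and T cell and erythroid markers are apart in the same direction.

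Among the 5 genes whose profile over the 8 libraries was most like the mean of Igll1, Vpreb1 and Vpreb3 were Myl4, Fhdc1, Bach2 and Chchd10. Likeness was the root mean square difference of centred log2(CPM + 1) values, and it was 0.400, 0.449, 0.450 and 0.462 for these. Myl4, a myosin light chain, was at 0 to 0.929 CPM in the CD11b+ libraries and at 33.8, 56.9, 37.8 and 103 CPM in the CD11b- ones. Bach2 is described above. The measure depends on the pseudocount, and with 0.1 in place of 1 none of the 5 was among the 5 nearest, the ranks of these being 30, 22, 7 and 61.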

How the data were processed

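SmartSeq2 mRNA libraries of 8 sorted samples (4 CD11b+ and 4 CD11b-) were used. The authors deposited for each library a table of raw counts by gene symbol, although the file name says FPKM, and a table of CPM over all libraries. Counts scaled to their total gave the deposited CPM back within 0.0005. Per the submitters' processing notes TopHat2, HTSeq 0.10.0, DESeq2 and build mm9 were used, with no role or order given. The sources used here give neither the annotation nor the strand setting. Of 18817 rows, 27 carry numbers in place of symbols, with 0.205% to 0.514% of counts, and were left out.

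The members and lists were chosen with earlier results of these data known. Counts were tested with edgeR 4.0.16 (R 4.3.3), TMM scaling, filterByExpr (minimum count 10, total 15), the quasi-likelihood F test, edgeR's default prior count and p-values adjusted by Benjamini-Hochberg (threshold 0.05). All adjusted p-values printed are from it unless DESeq2 1.42.0 is named. Standard errors were worked back from the F statistic. The script was tested on simulated data. Replicates are called biological in the series' design, and p-values refer to the spread among them.

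Named genes were all members, the 3 most abundant tested genes and the called genes with the largest fold in each direction of each list, marker genes listed at 0 and the 5 nearest profiles. Marker lists are given as sums and counts. Faim3 was matched as Fcmr. Igkc, Iglc1, Iglc2, Paxx and Ptcra were not analysed here. Some genes that the rule names are not reported here. Alternatives were DESeq2, RLE size factors, 2 other filters, another prior count, a minimum of 2-fold, the replicate block, leaving out each library, and, added after seeing the data, no scaling and leaving out both CD11b- libraries highest in Mpo (replicates 1 and 2).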

Additional observations from a re-analysis of the deposited data

Results flagged for a closer look

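In 5 cases a library stood apart from the other 3 of its group by Dixon's ratio for groups of 4, the gap to the nearest library over the whole range. In CD11b+, Vpreb1 was at 0.273 CPM in replicate 1, Rag1 at 0.083 CPM and Dntt at 1.898 CPM in replicate 3, and Rag2 at 1.597 CPM in replicate 4, each with 0 in the other 3 libraries. With 3 libraries at 0 any count gives the highest ratio possible, so these 4 cases say only that the counts sat in 1 library. In CD11b-, Cd79a was at 382.8 CPM in replicate 4, where the other 3 libraries lay between 198 and 223 CPM. For a group without such ties chance gives this in about 1 in 20. The report gives the results of the 4 CD11b+ cases with and without the library.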

How the results depend on the processing

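Igll1, Vpreb1, Vpreb2, Vpreb3, Cd79a, Cd79b and Blnk kept their direction and their call under each of 17 alternatives. The other prior count, which is among them, changes only the fitted fold and not the p-value, so it could not alter a call. Dntt lost its call in 1 and Rag2 and Rag1 gained one in 3 and 2, as given in the report and, for the block, below, and no member changed direction. Members called lower ranged from 7 to 9. A minimum of 2-fold left 860 genes higher and 914 lower of all tested, 1 higher and 3 lower in receptor signalling, 3 lower in end joining, 0 higher in IL-7 and FLT3 signalling and 0 higher among immunoglobulin and plasma cell genes. Without both CD11b- libraries highest in Mpo end joining had 3 lower and immunoglobulin and plasma cell genes 0 higher. The 1 gene higher in IL-7 and FLT3 signalling was lost (0) with no filter and with no scaling, and with a library left out the number was 0 to 1. Surface genes lower numbered 7 to 12 with a library left out. Per coding length 5 of 10 members kept their rank, and with a pseudocount of 0.1, 0 of the 5 nearest profiles were shared. The cause was not tested. The sources used here do not say whether the replicate numbers pair the samples. Same-number correlations were 0.00495 to 0.0443, and 1 of 4 samples matched its own number best. Such correlations between different populations cannot settle whether samples were paired. With the replicate number as a block 9 members were called lower (Rag2 with adjusted p = 0.0329), 0 genes were higher in IL-7 and FLT3 signalling, and 1585 genes were higher and 1610 lower of all tested. Sh3bp2 lost its call with no filter, the block, the 2-fold minimum, 7 of the 8 single libraries left out and the Mpo pair left out (adjusted p from 0.0519 to 0.114). No scaling shifted the median of all genes by -0.0437 on the log2 scale. Counts in all CD11b+ libraries together were 0 for Vpreb2, 4 for Rag1, 10 for Vpreb1 and 65 for Rag2, which limits how closely their fold changes can be given.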
